A study of Mus musculus with 35 samples.

Results

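Protein kinases add phosphate groups to other proteins and protein phosphatases take them off. The genes described here are the 19 kinase and phosphatase genes of a 760-gene panel measured in mouse hippocampus. They were taken by symbol, as all rows that begin like a gene of the Ppp1 to Ppp6, Ppm1, Ptpn, Ptpr, Dusp, MAP kinase, Camk, Prk, Cdk, Pak, Stk, Akt, Gsk3, Mark, Rps6k or Csnk families, without Camk4, Ppp3cb, Prkcb and Ptpn5. The phosphatase side holds Ppp1cc, Ppp1r2, Ppp3r1, Ppp4r2 and Ptprn. The kinase side holds the MAP kinase cascade genes Map3k9, Map4k5, Mapk6, Mapk9 and Mapkapk2, the AMP-activated kinase subunit Prkag1, the protein kinase A subunit Prkar1b, the protein kinase C isoforms Prkca and Prkcq, the protein kinase D gene Prkd3, the cyclin-dependent kinases Cdk14 and Cdk18, and the p21-activated kinases Pak1 and Pak3. No Map2k, Dusp, Akt, Gsk3, Csnk, Stk, Mark or Rps6k gene was among the rows analysed here.

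In neurons, kinases and phosphatases set the strength of synapses, the shape of the cytoskeleton and the phosphorylation of tau, the microtubule protein that aggregates in Alzheimer disease. Calcineurin and protein phosphatase 1 act against protein kinase A and protein kinase C at synapses. MAP kinases pass signals of growth and stress along 3 tiers of enzymes, each of which phosphorylates the next. Transcript levels say nothing direct of enzyme activity, which is set mostly by second messengers, partner proteins and phosphorylation itself.

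The mice were 18 months old, on a C57BL6/J background, and fell into 5 groups. ADPolB_UA (6 mice) and ADPolB_veh (7 mice) carried the genotype labelled heterozygous Polbtm1Rsky_Tg(APPSwe,tauP301)L1Lfa Psen1tm1Mpm, given Urolithin A or vehicle. AD_UA (7 mice) and AD_veh (8 mice) carried Tg(APPSwe,tauP301)L1Lfa Psen1tm1Mpm, known as 3xTgAD, given Urolithin A or vehicle. WT_veh (7 mice) were wild type and had vehicle. Urolithin A, a gut microbial metabolite known to stimulate the removal of damaged mitochondria, was given by oral gavage at 200 mg/kg per day for 5 months. Of the 35 mice, 17 were male and 18 female. Wild-type mice had vehicle only, so the compound was compared with vehicle in transgenic mice alone. As background, the APP and tau transgenes of 3xTgAD mice are driven by a Thy1 promoter, which is active in neurons. Polb, the gene of DNA polymerase beta, was not analysed here, so the loss of a copy was not checked.

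Each value is a normalized NanoString barcode count on the log2 scale, and levels of different genes are not compared because each gene has its own probe. The median over all genes lay between 8.60 and 9.12 in the 35 mice. Of 13 striatal markers listed, Adora2a was the 1 measured. It was at 9.85 in AD_veh 2, 8.60 in AD_UA 3, 7.13 in AD_UA 8 and 6.07 in ADPolB_UA 6. The other mice lay between 0.98 and 4.79. Results of the kinase and phosphatase genes that rest on AD_veh 2, AD_UA 3 and AD_UA 8 are given with and without these 3 mice. Counts and medians of the marker lists are given with them only. ADPolB_UA 6 was kept in those fits, so they do not show what rests on it. The 23 measured oligodendrocyte and myelin genes had a mean per mouse of 9.17 to 11.08 in ADPolB_UA, 9.15 to 10.87 in ADPolB_veh, 9.05 to 10.30 in AD_UA, 9.15 to 11.27 in AD_veh and 8.31 to 10.42 in WT_veh. The 15 presynaptic genes ran from 11.39 to 12.15, 11.19 to 11.82, 11.61 to 12.05, 10.87 to 11.89 and 11.35 to 11.95 in the same groups. None of the 12 excitatory neuron markers listed was measured, 1 of 7 inhibitory neuron markers was, and the lowest value of any striatal marker was 0.98.

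With sex in the fit and p-values adjusted over all 760 genes, limma called 0 of the 19 genes in any of the 12 comparisons, and the values below are therefore sizes with their errors. The catalytic subunit Ppp1cc was higher in AD_veh than in WT_veh by 0.31 on the log2 scale, and Prkag1 and Map4k5 by 0.23 each. In ADPolB_veh against WT_veh, Prkar1b was lower by 0.43 and Pak3 by 0.32. In AD_UA against AD_veh, Map3k9, Prkar1b, Mapk6, Pak1 and Mapk9 were higher by 0.23 to 0.56. In ADPolB_UA against ADPolB_veh, Cdk18 was higher by 0.44 and Ptprn by 0.28, and the calcineurin subunit Ppp3r1 was lower by 0.25. In whole tissue, fewer cells of a type and less RNA per cell cannot be told apart.

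**Figure D1:**
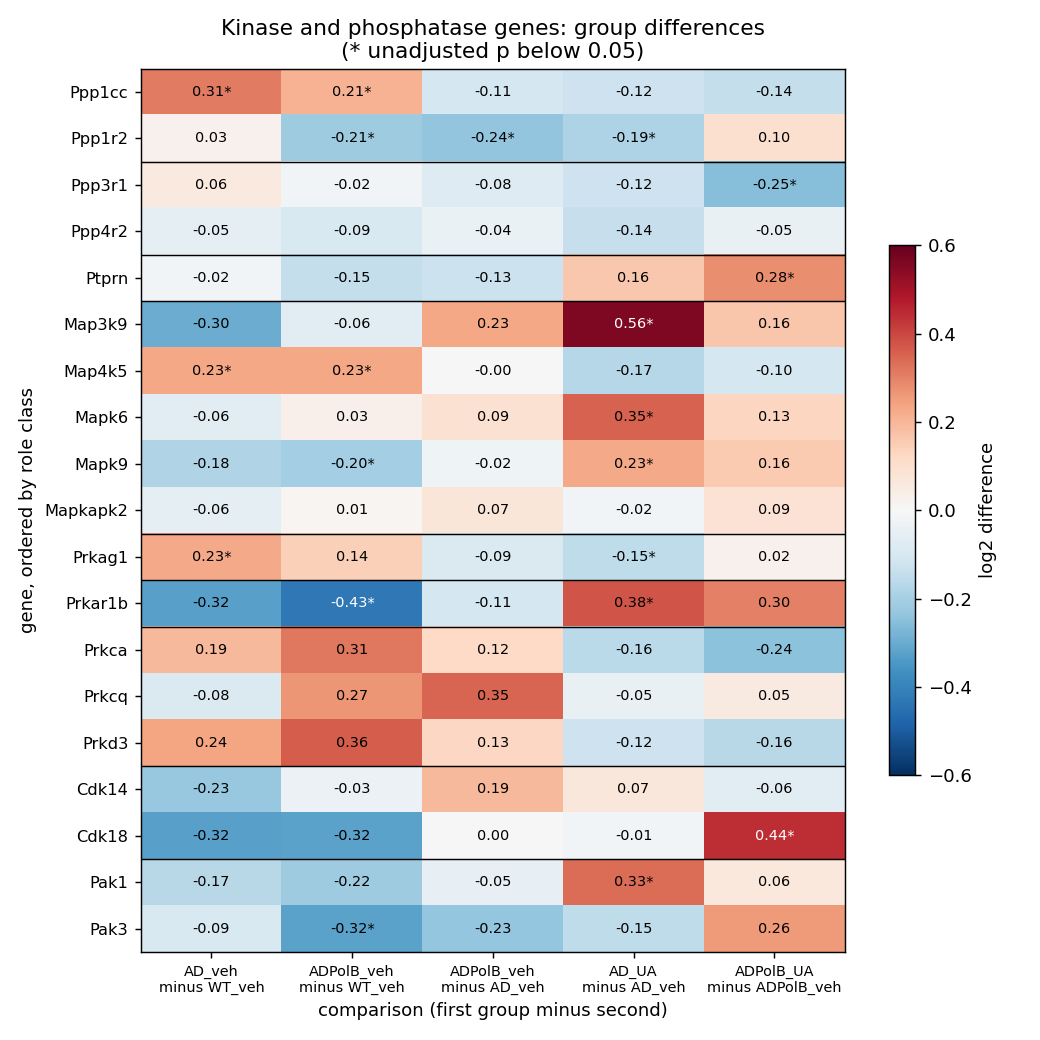
Log2 differences of the 19 genes (rows, grouped by role) in the 5 main comparisons (columns, first group minus second), with red for higher and blue for lower in the first group and a star at an unadjusted p below 0.05. The starred cells number 3, 6, 1, 7 and 3 from left to right, and the deepest red is Map3k9 in AD_UA minus AD_veh at 0.56.

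Ppp1cc encodes the gamma catalytic subunit of protein phosphatase 1, which removes phosphate from serine and threonine, and Ppp1r2 encodes inhibitor-2, which binds and restrains that subunit. Ppp1cc had the smallest p of the 19 over the 5 groups, and the 250 bases before its start are shown for that reason, on the GRCm38.p6 plus strand at chr5:122158025-122158274, credited to RefSeq. In this sequence and those further on, capitals mark matches to the GC box (GGGCGG), the core of the cAMP response element (TGACG) and a Sox motif (ACAAAG), on either strand.
Ppp1cc: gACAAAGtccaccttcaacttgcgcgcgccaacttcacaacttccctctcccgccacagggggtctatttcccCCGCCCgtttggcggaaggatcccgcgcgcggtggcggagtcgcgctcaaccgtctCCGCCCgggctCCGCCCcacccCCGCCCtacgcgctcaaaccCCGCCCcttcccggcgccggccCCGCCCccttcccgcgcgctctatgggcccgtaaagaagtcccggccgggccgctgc
Ppp1cc ran from 10.37 to 10.91 (median 10.52) in ADPolB_UA, 10.44 to 10.88 (10.69) in ADPolB_veh, 10.49 to 10.88 (10.69) in AD_UA, 10.57 to 11.10 (10.81) in AD_veh and 10.32 to 10.65 (10.54) in WT_veh. AD_veh stood above most of WT_veh, with an overlap between 10.57 and 10.65, and ADPolB_UA covered the whole upper range of WT_veh. AD_veh exceeded WT_veh by 0.31 ± 0.0857 (SE), or 1.24-fold, with an adjusted limma p of 0.175, the smallest of the 19 genes in that comparison. ADPolB_veh exceeded WT_veh by 0.21 (adjusted p = 0.18) and AD_UA exceeded WT_veh by 0.19 (adjusted p = 0.79). In ADPolB_UA the difference from WT_veh was 0.07, with a 95% interval of -0.12 to 0.25. Without the 3 mice the AD_veh difference was 0.29 (adjusted p = 0.315). With the mean of the myelin genes as a covariate it was 0.28 (adjusted p = 0.171).

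Ppp1r2 had another pattern. It ran from 10.33 to 10.71 (median 10.61) in ADPolB_UA, 10.32 to 10.59 (10.51) in ADPolB_veh, 10.46 to 10.61 (10.52) in AD_UA, 10.48 to 11.29 (10.68) in AD_veh and 10.49 to 11.00 (10.69) in WT_veh. The values in ADPolB_veh and AD_UA were close together and at the low end of the other vehicle groups. Ppp1r2 in ADPolB_veh was lower than in AD_veh by 0.24 ± 0.0906 (log2 difference -0.24, adjusted p = 0.873), which was -0.15 (adjusted p = 0.315) without the 3 mice, of which AD_veh 2 held the highest value at 11.29. Against WT_veh, the ADPolB_veh difference was -0.21 (adjusted p = 0.18). The catalytic subunit and its inhibitor had log2 differences of opposite sign in ADPolB_veh against WT_veh, 0.21 for Ppp1cc and -0.21 for Ppp1r2, and 0.06 and -0.36 with each mouse centred on its median.

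**Figure D2:**
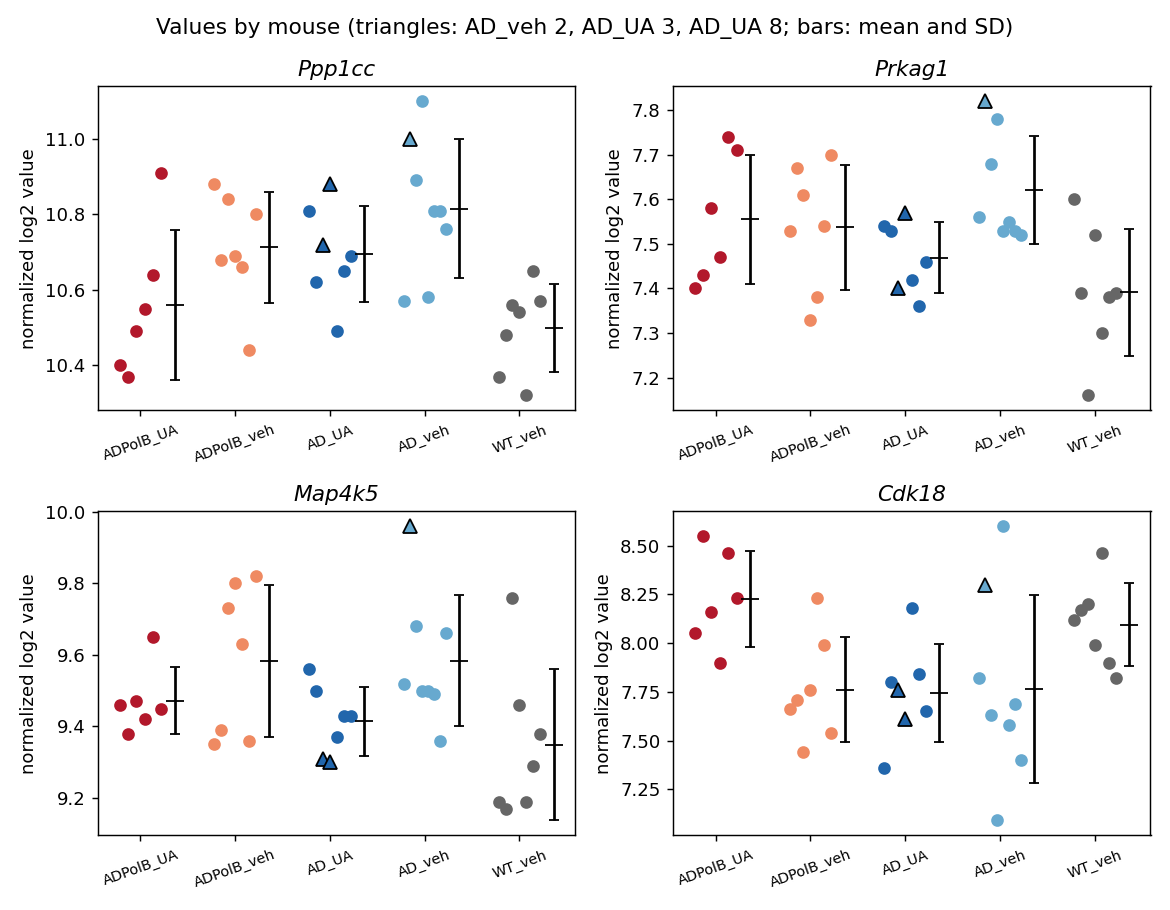
Normalized log2 values by mouse of Ppp1cc, Prkag1, Map4k5 and Cdk18 in the 5 groups, 1 point a mouse, with the mean and SD beside each group and triangles for AD_veh 2, AD_UA 3 and AD_UA 8. Ppp1cc ran from 10.57 to 11.10 in AD_veh and from 10.32 to 10.65 in WT_veh, and Cdk18 in ADPolB_UA lay between 7.90 and 8.55.

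Ppp3r1 encodes calcineurin B, the calcium-binding subunit that switches on the phosphatase calcineurin. It ran from 12.69 to 13.15 (median 12.95) in ADPolB_UA, 12.77 to 13.45 (13.24) in ADPolB_veh, 12.84 to 13.44 (13.11) in AD_UA, 12.82 to 13.63 (13.32) in AD_veh and 13.09 to 13.38 (13.21) in WT_veh. ADPolB_UA had the lowest median, and its highest mouse, ADPolB_UA 6 at 13.15, was its 1 mouse inside the range of WT_veh. The other mice of ADPolB_UA lay between 12.69 and 13.01, below every WT_veh mouse, and the lowest of them lay below every mouse of the other 4 groups. The difference from ADPolB_veh was -0.25 ± 0.118 (adjusted p = 0.832) and that from WT_veh was -0.27 ± 0.117 (adjusted p = 0.463). Averaged over both transgenic genotypes, Urolithin A minus vehicle was -0.19 (adjusted p = 0.369), and -0.23 (adjusted p = 0.325) without the 3 mice. The 2 vehicle-treated transgenic groups differed from WT_veh by 0.06 in AD_veh (95% interval -0.16 to 0.28) and -0.02 in ADPolB_veh (-0.25 to 0.21).

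Ppp4r2 encodes a regulatory subunit of protein phosphatase 4. Its group means were 9.91 ± 0.19 in ADPolB_UA, 9.95 ± 0.12 in ADPolB_veh, 9.85 ± 0.09 in AD_UA, 9.99 ± 0.12 in AD_veh and 10.04 ± 0.14 in WT_veh (SD), so WT_veh had the highest mean. The difference of AD_UA from WT_veh was -0.19 ± 0.0775 (adjusted p = 0.641), and over all transgenic mice it was -0.12 (adjusted p = 0.365).

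Ptprn belongs to the receptor tyrosine phosphatase family by sequence, but its product, IA-2, lacks phosphatase activity and sits in the membrane of dense-core vesicles, which carry neuropeptides. It ran from 9.99 to 10.70 (median 10.29) in ADPolB_UA, 9.92 to 10.22 (10.01) in ADPolB_veh, 10.06 to 10.56 (10.33) in AD_UA, 9.89 to 10.58 (10.08) in AD_veh and 9.81 to 10.45 (10.23) in WT_veh. Both treated groups had higher medians than the vehicle group of their genotype, with overlapping ranges. ADPolB_UA minus ADPolB_veh was 0.28 ± 0.121 (adjusted p = 0.735), AD_UA minus AD_veh was 0.16 with a 95% interval of -0.07 to 0.39, and the average of both was 0.22 ± 0.082 (adjusted p = 0.289). Without the 3 mice that average was 0.16 (adjusted p = 0.712). Without ADPolB_UA 6 it was 0.19, and ADPolB_UA minus ADPolB_veh was 0.21.

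The MAP kinase cascade was represented in part, and no Map2k gene was among the rows analysed here. Map4k5 and Map3k9 encode upstream kinases, Mapk9 encodes JNK2 and Mapk6 encodes ERK3, an atypical MAP kinase, and Mapkapk2 encodes MK2, which is switched on by the p38 MAP kinase. The bases before the start of Map3k9 (chr12:81781171-81781420, minus strand), Mapk9 (chr11:49846501-49846750, plus strand) and Map4k5 (chr12:69893164-69893413, minus strand) are shown because Map3k9 varied with Mapk9 over mice and against Map4k5. Build and source are as above.
Map3k9: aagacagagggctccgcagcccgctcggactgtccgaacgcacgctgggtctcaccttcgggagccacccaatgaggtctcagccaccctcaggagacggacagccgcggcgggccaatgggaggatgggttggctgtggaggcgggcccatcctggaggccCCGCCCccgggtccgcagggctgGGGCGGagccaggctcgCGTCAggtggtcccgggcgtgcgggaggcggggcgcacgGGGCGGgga
Mapk9: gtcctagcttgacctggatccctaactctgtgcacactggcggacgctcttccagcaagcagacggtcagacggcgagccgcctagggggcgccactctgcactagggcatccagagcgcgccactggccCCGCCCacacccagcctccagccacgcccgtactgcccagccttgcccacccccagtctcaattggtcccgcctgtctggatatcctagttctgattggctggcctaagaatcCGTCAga
Map4k5: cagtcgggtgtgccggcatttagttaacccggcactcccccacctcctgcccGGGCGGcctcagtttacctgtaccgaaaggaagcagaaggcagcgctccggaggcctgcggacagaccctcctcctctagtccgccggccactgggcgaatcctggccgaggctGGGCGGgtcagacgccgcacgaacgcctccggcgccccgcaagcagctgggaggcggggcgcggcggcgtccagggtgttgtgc
Map3k9 ran from 7.09 to 8.10 (median 7.27) in ADPolB_UA, 6.96 to 7.90 (7.12) in ADPolB_veh, 6.97 to 8.01 (7.63) in AD_UA, 6.77 to 7.64 (6.93) in AD_veh and 6.94 to 7.76 (7.22) in WT_veh. AD_UA had the highest median and AD_veh the lowest, and the lowest mouse of AD_UA lay within the range of AD_veh. AD_UA minus AD_veh was 0.56 ± 0.184, or 1.48-fold, with an adjusted limma p of 0.472. Leaving out the 3 mice gave 0.37, and AD_veh 2 was the lowest of its group at 6.77 and AD_UA 3 and AD_UA 8 stood at 8.01 and 7.95. In the Polb heterozygotes the same difference was 0.16 (95% interval -0.24 to 0.57), and the difference between the 2 treatment effects was -0.40 ± 0.273 (adjusted p = 0.994), or -0.22 without the 3 mice. ADPolB_UA 6 was the highest of its group at 8.10, and without it the difference between the treatment effects was -0.51.

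Mapk9 ran from 9.73 to 10.24 (median 9.85) in ADPolB_UA, 9.67 to 9.92 (9.73) in ADPolB_veh, 9.73 to 10.41 (9.96) in AD_UA, 9.68 to 9.92 (9.79) in AD_veh and 9.74 to 10.27 (9.96) in WT_veh. The vehicle-treated transgenic mice of both genotypes lay at or below 9.92, while the highest mice of the other 3 groups lay between 10.24 and 10.41. AD_veh minus WT_veh was -0.18 (adjusted p = 0.588) and ADPolB_veh minus WT_veh was -0.20 (adjusted p = 0.185). Urolithin A minus vehicle was 0.23 ± 0.0931 in 3xTgAD mice (adjusted p = 0.472) and 0.16 in Polb heterozygotes (adjusted p = 0.864). The average of both was 0.19 ± 0.0684 (adjusted p = 0.289), with the smallest p among the 19 for the averaged treatment. Without the 3 mice the 3xTgAD value was 0.10 and the average 0.12 (adjusted p = 0.681). ADPolB_UA 6, kept in that fit, was the highest mouse of ADPolB_UA at 10.24, with the next at 10.09.

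Mapk6 ran from 8.60 to 9.40 (median 9.09) in ADPolB_UA, 8.72 to 9.21 (8.93) in ADPolB_veh, 8.62 to 9.76 (9.13) in AD_UA, 8.50 to 9.48 (8.69) in AD_veh and 8.60 to 9.30 (8.89) in WT_veh. The ranges of all 5 groups overlapped. AD_UA minus AD_veh was 0.35 ± 0.158 (adjusted p = 0.483), and 0.28 without the 3 mice.

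Map4k5 ran from 9.38 to 9.65 (median 9.46) in ADPolB_UA, 9.35 to 9.82 (9.63) in ADPolB_veh, 9.30 to 9.56 (9.43) in AD_UA, 9.36 to 9.96 (9.51) in AD_veh and 9.17 to 9.76 (9.29) in WT_veh. Every transgenic group had a higher median than WT_veh, and the ranges overlapped. AD_veh minus WT_veh was 0.23 ± 0.092 (adjusted p = 0.542) and ADPolB_veh minus WT_veh was 0.23 ± 0.0953 (adjusted p = 0.18). With the myelin mean as a covariate the Map4k5 values became 0.13 (adjusted p = 0.426) in AD_veh and 0.08 (adjusted p = 0.779) in ADPolB_veh. Mapkapk2 had group means of 7.42 ± 0.19 in ADPolB_UA, 7.30 ± 0.24 in ADPolB_veh, 7.21 ± 0.31 in AD_UA, 7.24 ± 0.19 in AD_veh and 7.31 ± 0.13 in WT_veh (SD). These means are not adjusted for sex. With sex in the fit, no limma difference of Mapkapk2 in the 5 main comparisons exceeded 0.09 in size.

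**Figure D3:**
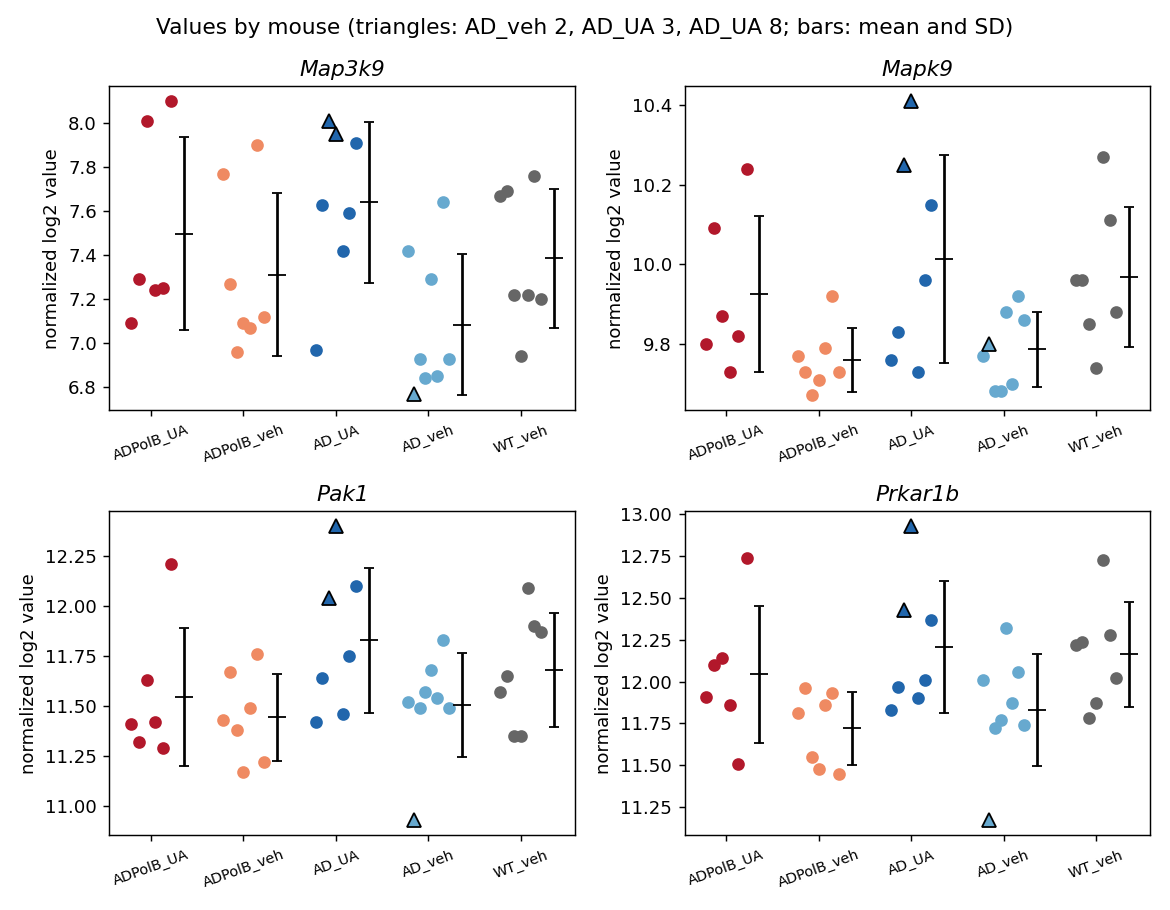
Normalized log2 values by mouse of Map3k9, Mapk9, Pak1 and Prkar1b in the 5 groups, 1 point a mouse, with the mean and SD beside each group and triangles for AD_veh 2, AD_UA 3 and AD_UA 8. AD_UA 8 is the highest mouse of AD_UA in Mapk9 (10.41), Pak1 (12.40) and Prkar1b (12.93), and AD_veh 2 is the lowest of AD_veh in Map3k9 (6.77), Pak1 (10.93) and Prkar1b (11.17).

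Prkag1 encodes the gamma-1 subunit of AMP-activated kinase, through which that kinase senses the ratio of AMP to ATP. It ran from 7.40 to 7.74 (median 7.53) in ADPolB_UA, 7.33 to 7.70 (7.54) in ADPolB_veh, 7.36 to 7.57 (7.46) in AD_UA, 7.52 to 7.82 (7.56) in AD_veh and 7.16 to 7.60 (7.39) in WT_veh. AD_veh began at 7.52, near the top of WT_veh. AD_veh minus WT_veh was 0.23 ± 0.0724, or 1.17-fold (adjusted p = 0.337), and 0.20 (adjusted p = 0.515) without the 3 mice. AD_UA minus AD_veh was -0.15 ± 0.0724 (adjusted p = 0.483), and -0.13 without them. In Polb heterozygotes the treatment difference was 0.02, with a 95% interval of -0.14 to 0.18, and the difference between the 2 treatment effects was 0.18 (adjusted p = 0.994).

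Prkar1b encodes the regulatory subunit RI-beta of protein kinase A, a neuronal subunit that holds the catalytic subunit inactive until cAMP binds. It ran from 11.51 to 12.74 (median 12.01) in ADPolB_UA, 11.45 to 11.96 (11.81) in ADPolB_veh, 11.83 to 12.93 (12.01) in AD_UA, 11.17 to 12.32 (11.82) in AD_veh and 11.78 to 12.73 (12.22) in WT_veh. The order of the medians put WT_veh first, both treated groups next and both vehicle-treated transgenic groups last, with all ranges overlapping. ADPolB_veh minus WT_veh was -0.43 ± 0.179, or 0.742-fold (adjusted p = 0.18). With the myelin mean as a covariate it was -0.14 (adjusted p = 0.784). AD_UA minus AD_veh was 0.38 ± 0.173 (adjusted p = 0.483), but 0.09 without the 3 mice. ADPolB_UA minus ADPolB_veh was 0.30 ± 0.187 (adjusted p = 0.855), and 0.17 without ADPolB_UA 6.

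Prkca and Prkcq encode the alpha and theta isoforms of protein kinase C, and Prkd3 encodes a protein kinase D, which protein kinase C activates. The sequence before Prkcq (chr2:11172132-11172381, plus strand, GRCm38.p6, RefSeq) is shown because this gene followed the myelin genes most closely of the 19.
Prkcq: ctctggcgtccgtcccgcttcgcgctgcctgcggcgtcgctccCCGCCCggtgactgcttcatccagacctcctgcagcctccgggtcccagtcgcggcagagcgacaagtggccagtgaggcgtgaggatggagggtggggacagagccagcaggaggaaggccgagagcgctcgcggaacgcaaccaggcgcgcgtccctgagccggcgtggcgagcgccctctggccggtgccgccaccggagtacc
Prkcq spread widely inside each group, from 5.57 to 7.78 (median 6.98) in ADPolB_UA, 5.62 to 7.81 (6.75) in ADPolB_veh, 5.68 to 7.24 (6.14) in AD_UA, 5.63 to 7.28 (6.44) in AD_veh and 5.37 to 7.45 (6.38) in WT_veh. These ranges covered nearly the same span. Its difference for ADPolB_veh minus WT_veh was 0.27 with a 95% interval whose lower end was -0.46, the widest interval of the 19 genes in that comparison. With the myelin mean as a covariate the direction of this ADPolB_veh difference turned, to -0.36 (adjusted p = 0.714). AD_veh minus WT_veh was -0.52 (adjusted p = 0.26) with that covariate. There the direction did not turn, since the mean was 6.33 in AD_veh and 6.42 in WT_veh. Prkd3 had means of 6.24 ± 0.34 in ADPolB_UA, 6.38 ± 0.43 in ADPolB_veh, 6.13 ± 0.12 in AD_UA, 6.26 ± 0.45 in AD_veh and 6.03 ± 0.41 in WT_veh (SD). Its ADPolB_veh minus WT_veh difference was 0.36 (adjusted p = 0.22), which was 0.06 (adjusted p = 0.956) with the myelin mean as a covariate. Prkca had means of 10.47 ± 0.31, 10.70 ± 0.40, 10.42 ± 0.60, 10.58 ± 0.50 and 10.39 ± 0.25 in the same groups, with differences of 0.31 or less in size in the main comparisons.

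Cdk18 and Cdk14 encode kinases of the PCTAIRE and PFTAIRE families, which are expressed in postmitotic cells. Cdk18 ran from 7.90 to 8.55 (median 8.20) in ADPolB_UA, 7.44 to 8.23 (7.71) in ADPolB_veh, 7.36 to 8.18 (7.76) in AD_UA, 7.09 to 8.60 (7.66) in AD_veh and 7.82 to 8.46 (8.12) in WT_veh. ADPolB_UA and WT_veh covered nearly the same range, and the other 3 groups had lower medians with overlap. Cdk18 in ADPolB_UA was higher than in ADPolB_veh by 0.44 ± 0.176, or 1.36-fold (adjusted p = 0.569). Against WT_veh the differences were 0.12 in ADPolB_UA, -0.32 in ADPolB_veh, -0.34 in AD_UA and -0.32 in AD_veh, with adjusted p-values of 0.771, 0.21, 0.926 and 0.588. The treatment difference in 3xTgAD mice was -0.01 (95% interval -0.34 to 0.32), and the difference between the 2 treatment effects was 0.46 ± 0.24 (adjusted p = 0.96). Cdk14 had means of 10.84 ± 0.21, 10.86 ± 0.21, 10.74 ± 0.24, 10.68 ± 0.77 and 10.92 ± 0.14 in ADPolB_UA, ADPolB_veh, AD_UA, AD_veh and WT_veh (SD). The wide spread in AD_veh came from AD_veh 2 at 8.80, and without the 3 mice the AD_veh minus WT_veh difference of Cdk14, -0.23, became 0.03 (adjusted p = 0.959).

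Pak1 and Pak3 encode effectors of the small GTPases Rac and Cdc42 that act on actin in dendritic spines. Pak1 ran from 11.29 to 12.21 (median 11.42) in ADPolB_UA, 11.17 to 11.76 (11.43) in ADPolB_veh, 11.42 to 12.40 (11.75) in AD_UA, 10.93 to 11.83 (11.53) in AD_veh and 11.35 to 12.09 (11.65) in WT_veh. AD_UA had the highest median and every pair of groups overlapped. AD_UA minus AD_veh was 0.33 ± 0.147 (adjusted p = 0.483), but 0.08 without the 3 mice, and 0.06 was the difference of ADPolB_UA from ADPolB_veh (95% interval -0.26 to 0.39). Pak3 ran from 8.54 to 9.08 (median 8.72) in ADPolB_UA, 7.99 to 8.98 (8.35) in ADPolB_veh, 8.27 to 8.90 (8.52) in AD_UA, 8.03 to 9.15 (8.79) in AD_veh and 8.51 to 9.14 (8.78) in WT_veh. ADPolB_veh had the lowest median. ADPolB_veh minus WT_veh was -0.32 ± 0.146 (adjusted p = 0.18), and -0.16 (adjusted p = 0.779) with the myelin mean as a covariate. The treatment effect of Pak3 in Polb heterozygotes minus that in 3xTgAD mice was 0.41 ± 0.209 (adjusted p = 0.96).

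**Figure D4:**
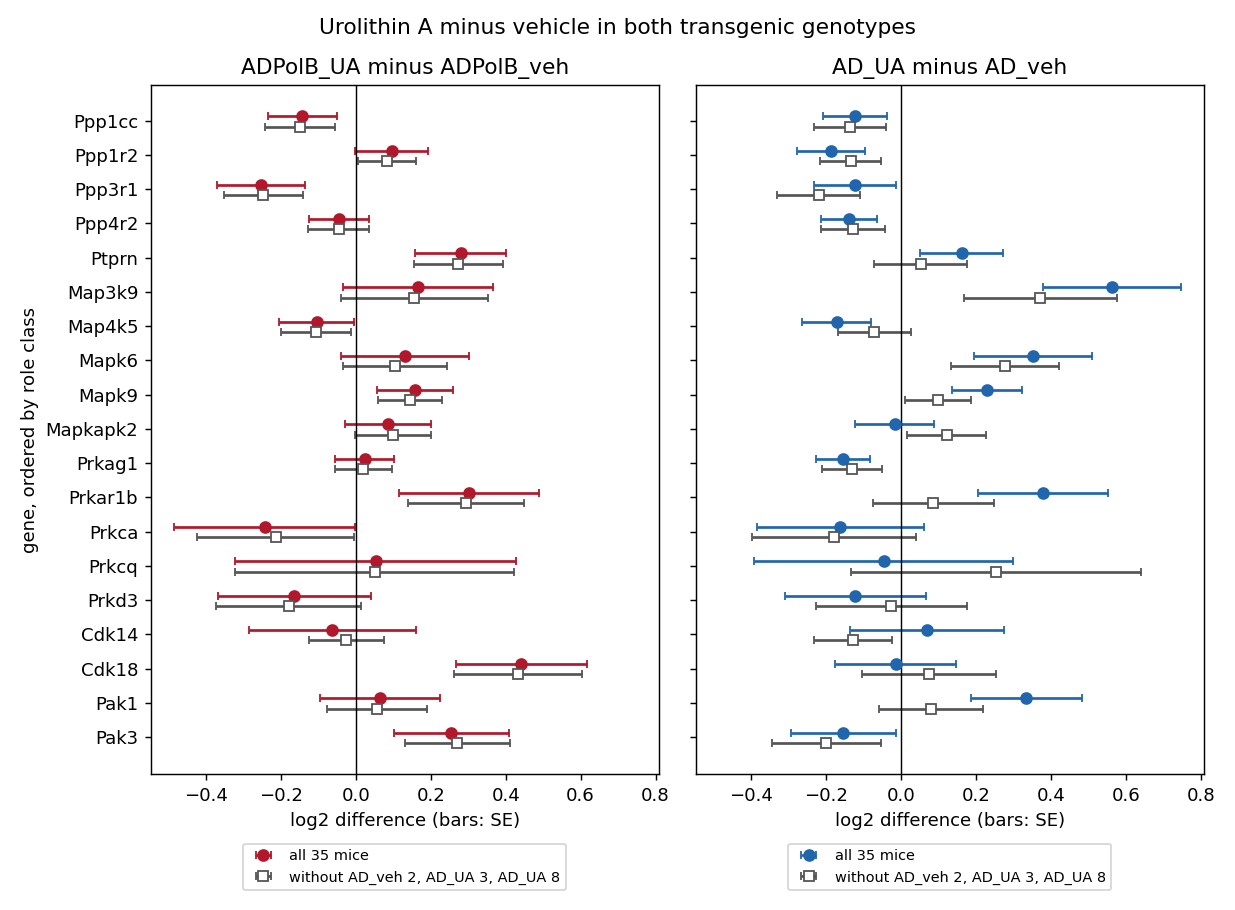
Log2 difference of Urolithin A minus vehicle for each of the 19 genes in Polb heterozygous 3xTgAD mice (left) and 3xTgAD mice (right), with SE bars. Filled circles use all 35 mice and open squares leave out AD_veh 2, AD_UA 3 and AD_UA 8, which brings Pak1 in the right panel to 0.08 and Prkar1b to 0.09. None of these mice belongs to the groups of the left panel. Its squares can therefore shift only through the sex term and the shared spread, and their closeness to the circles is no check.

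For AD_veh minus WT_veh, limma called 0 of 19 genes and 0.132% of all 760. At an unadjusted p below 0.05 there were 3 of the 19, all higher, against 6.58% of all genes (4.34% higher and 2.24% lower), and the median difference was -0.06 for the 19 and 0.04 for all genes. The 3 genes were Ppp1cc, Prkag1 and Map4k5. With median centring or quantile normalization there were also 3, Ppp1cc and Map4k5 higher and Cdk18 lower, with 31 higher and 32 lower, or 29 higher and 34 lower, among all genes. The count was 5 without WT_veh 3, without AD_veh 3 or without all of the 3 mice, the last with 6.05% of all genes. With mice weighted by their quality, Ppp1cc had an adjusted p of 0.0484, and 0.658% of all genes passed the adjusted threshold.

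For ADPolB_veh minus WT_veh, 0 of 19 genes and 0% of all genes were called. At an unadjusted p below 0.05 there were 6 of the 19, with Map4k5 and Ppp1cc higher and Prkar1b, Ppp1r2, Pak3 and Mapk9 lower, against 25.8% of all genes (20.7% higher and 5.13% lower). This split turned with the scaling: median centring gave 0 higher and 6 lower of the 19, and 88 higher and 133 lower of all genes, and quantile normalization gave 1 higher and 6 lower, and 82 higher and 101 lower. Map4k5 was then 0.09 under both, and Ppp1cc 0.06 and 0.21. The median difference as deposited was -0.03 for the 19 and 0.09 for all genes. The count was 3 without WT_veh 1, WT_veh 2 or ADPolB_veh 7, 1 without WT_veh 6 and 0 without ADPolB_veh 6. With the myelin mean as a covariate it was 0, and the share of all genes fell as well, to 6.45%. All 23 of the myelin genes were higher in ADPolB_veh, with a median of 0.70, and 22 of 23 in AD_veh, with a median of 0.55. AD_veh 2 had the highest myelin mean of AD_veh, 11.27, and this median was not computed without it. With mice weighted, 11 of the 19 passed the adjusted threshold, Map4k5 at 0.40 and Prkar1b at -0.53 among them, beside 58% of all genes.

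For ADPolB_veh minus AD_veh, 0 of 19 genes and 0% of all genes were called, and 1 of the 19, Ppp1r2, had an unadjusted p below 0.05, against 4.34% of all genes (3.16% higher and 1.18% lower). The median difference was -0.02 for the 19 and 0.04 for all genes. Without AD_veh 2 or ADPolB_veh 2 the count was 2. With median centring it was also 1, lower, with 17 higher and 22 lower among all genes. After Ppp1r2, the smallest p-values belonged to Pak3 (-0.23, adjusted p = 0.873), Map3k9 (0.23), Ppp1cc (-0.11) and Prkag1 (-0.09). Single mice moved each of these: Pak3 was -0.14 without ADPolB_veh 6, Map3k9 0.14 and Ppp1cc -0.06 without ADPolB_veh 5, and Prkag1 -0.05 without ADPolB_veh 7. With mice weighted, Map3k9 was -0.0024, and Pak3 and Prkd3 passed the adjusted threshold at -0.39 and 0.39, which is 10.5% of the 19 beside 27.5% of all genes.

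For AD_UA minus AD_veh, 0 of 19 genes and 0% of all genes were called. At an unadjusted p below 0.05 there were 7 of the 19, with Map3k9, Mapk9, Pak1, Mapk6 and Prkar1b higher and Prkag1 and Ppp1r2 lower, against 9.34% of all genes (3.95% higher and 5.39% lower). The median difference was -0.05 both for the 19 and for all genes. The count was 0 without AD_veh 2, AD_UA 3 and AD_UA 8, with 2.37% of all genes. Median centring gave 4 higher and 0 lower, and 33 higher and 33 lower among all genes. Quantile normalization gave 4 higher and 1 lower, and 36 higher and 39 lower among all genes. Leaving out single mice gave 2 without AD_UA 3 or AD_UA 7, 3 without AD_veh 2 or AD_UA 8 and 4 without AD_veh 7 or AD_veh 8. In this comparison 22 of 23 myelin genes were lower, with a median of -0.31, and 14 of 15 presynaptic genes were higher, with a median of 0.17. AD_veh 2 had the highest myelin mean of AD_veh, 11.27, and its lowest presynaptic mean, 10.87. AD_UA 3 and AD_UA 8 had the lowest myelin means of AD_UA, 9.08 and 9.05. The counts and medians of these lists were not computed without those mice. With the myelin mean as a covariate the count among the 19 stayed at 7, with 11.8% of all genes.

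For ADPolB_UA minus ADPolB_veh, 0 of 19 genes and 0% of all genes were called. At an unadjusted p below 0.05 there were 3 of the 19, with Cdk18 and Ptprn higher and Ppp3r1 lower, against 5.66% of all genes (2.76% higher and 2.89% lower), and the median difference was 0.06 for the 19 and -0.01 for all genes. The count was 1 without ADPolB_UA 2 or ADPolB_UA 3, and 1, Cdk18, with median centring, where 21 of all genes were higher and 17 lower. All 15 presynaptic genes were higher, with a median of 0.18, and 21 of 23 myelin genes were lower, with a median of -0.15. With the myelin mean as a covariate the count stayed at 3, with 9.21% of all genes.

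Averaged over both genotypes, Urolithin A minus vehicle gave 0 of 19 genes and 0% of all genes past the adjusted threshold. At an unadjusted p below 0.05 there were 8 of the 19, against 11.8% of all genes (5.13% higher and 6.71% lower). Mapk9, Ptprn, Prkar1b, Map3k9 and Mapk6 were higher and Ppp3r1, Ppp1cc and Map4k5 were lower, and the median difference was 0.00 for the 19 and -0.03 for all genes. Prkar1b had an averaged difference of 0.34 ± 0.127 (adjusted p = 0.289) and Map3k9 one of 0.36 ± 0.135 (adjusted p = 0.289), which were 0.19 (adjusted p = 0.802) and 0.26 (adjusted p = 0.727) without the 3 mice. Median centring gave 5 higher and 1 lower of the 19, with 42 higher and 40 lower among all genes. Quantile normalization gave 6 higher and 3 lower, with 41 higher and 50 lower among all genes. The median ran from -0.0263 without AD_UA 1 to 0.0489 without AD_UA 8. The count was 5 without AD_veh 7, ADPolB_veh 3, ADPolB_veh 6 or ADPolB_UA 2, and 3 without AD_veh 2, AD_UA 3 and AD_UA 8, when 7.37% of all genes were so. For the difference between the treatment effects in the 2 genotypes, 0 of 19 and 0% of all genes were called. Ppp1r2 was the 1 gene with an unadjusted p below 0.05 (0.28 ± 0.134, adjusted p = 0.96, and 0.19 without AD_veh 2), against 3.82% of all genes (2.37% higher and 1.45% lower). That count was 0 without AD_veh 3, ADPolB_veh 5, ADPolB_veh 6, ADPolB_veh 7, AD_UA 1, AD_UA 2, AD_UA 6, AD_UA 7, ADPolB_UA 3 or ADPolB_UA 6. It was 2 without AD_veh 6, AD_veh 8, ADPolB_veh 2, AD_UA 5 or ADPolB_UA 5, and 3 without ADPolB_veh 4.

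The treated groups were also set against WT_veh, the same wild-type mice as in the vehicle comparisons. For AD_UA minus WT_veh and for ADPolB_UA minus WT_veh, 0 of 19 genes were called, against 0.132% of all genes in each. In AD_UA, Ppp4r2 and Ppp1cc had an unadjusted p below 0.05, against 5.39% of all genes (1.97% higher and 3.42% lower), and the median of the 19 was 0.05 beside 0.00 over all genes, but -0.0164 without AD_UA 8. This count of 2 became 1 without WT_veh 1, WT_veh 2, WT_veh 6, AD_UA 3, AD_UA 7 or AD_UA 8, and 4 without WT_veh 8 or AD_UA 5. In ADPolB_UA, Ppp3r1 and Prkag1 (0.17, adjusted p = 0.463) had an unadjusted p below 0.05, against 10% of all genes (7.63% higher and 2.37% lower), and the median of the 19 was 0.07 beside 0.08 over all genes. Without ADPolB_UA 6 the median of the 19 was -0.00687, and after median centring it was -0.0415. Both genes at an unadjusted p below 0.05 were lower after median centring or quantile normalization, Ppp3r1 and Ppp4r2, with 30 higher and 42 lower, or 24 higher and 52 lower, among all genes. That count was 1 without WT_veh 6, ADPolB_UA 2 or ADPolB_UA 3, and 0 without WT_veh 7, WT_veh 8 or ADPolB_UA 5. Over all 4 transgenic groups minus WT_veh, limma called 0 of 19 genes and 0.132% of all genes. Ppp1cc (0.19 ± 0.0701), Prkag1 (0.15 ± 0.0592) and Map4k5 (0.16 ± 0.0752) had an unadjusted p below 0.05, each with an adjusted p of 0.365, against 12.2% of all genes (9.21% higher and 3.03% lower). This split turned with the scaling too: median centring gave 0 higher and 3 lower of the 19 (Cdk18, Ppp1r2 and Ppp4r2), with 43 higher and 63 lower among all genes, and quantile normalization gave Ppp1cc higher and Cdk18 and Ppp4r2 lower, with 35 higher and 58 lower. With median centring Ppp1cc was 0.11, Prkag1 0.07 and Map4k5 0.08. The median difference as deposited was -0.01 for the 19 and 0.05 for all genes.

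The moderated F test over the 5 groups called 0 of 19 genes and 0.132% of all genes. Ppp1cc, Cdk18, Prkag1, Prkar1b and Mapk9, in order of p, had an unadjusted p below 0.05, each with an adjusted p of 0.365, against 13.6% of all genes, and Map3k9 followed (adjusted p = 0.382). The count of 5 became 2 without WT_veh 2, WT_veh 6, WT_veh 7 or AD_veh 8, and 8 without ADPolB_veh 5 or ADPolB_UA 6. It was 3 without WT_veh 1, AD_veh 4, AD_veh 7, ADPolB_veh 3, ADPolB_veh 4, ADPolB_veh 6, ADPolB_veh 7, AD_UA 3, AD_UA 7, AD_UA 8 or ADPolB_UA 2. Between the sexes, 0 of 19 genes and 0% of all genes were called. Mapkapk2 had an unadjusted p below 0.05, against 8.55% of all genes (7.89% higher and 0.658% lower), with a mean of 7.38 in females and 7.20 in males. Its difference of 0.16 ± 0.0706 (adjusted p = 0.487) was 0.11 (adjusted p = 0.563) without the 3 mice. Pak1 followed at 0.15 (adjusted p = 0.753). The median sex difference was 0.06 for the 19 and 0.04 for all genes, and the count of 1 became 2 without AD_UA 8 and 0 without ADPolB_UA 2.

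From mouse to mouse inside the groups, after the group and sex means were removed, 10 of the 19 genes, or 52.6%, went up or down with both the myelin and the presynaptic mean, in opposite directions. Of the 722 genes in neither list, 59.6% did so, and 65.3% of the 737 genes outside the myelin list went with the myelin mean. The share among the 19 was not above that over the panel, and the gap was not tested. Prkcq (Pearson r = 0.84, Spearman rho = 0.87), Map4k5 (0.82 and 0.82) and Prkd3 (0.75 and 0.73) were high in mice with high myelin genes, 3 genes of the 19 beside 45.7% of all genes outside the list. Prkar1b (-0.79 and -0.81), Ptprn (-0.67 and -0.58), Map3k9 (-0.64 and -0.61), Pak1 (-0.63 and -0.65), Pak3 (-0.55 and -0.54), Cdk14 (-0.51 and -0.42) and Mapk9 (-0.44 and -0.48) were low in those mice, 7 genes of the 19 beside 19.5%. The permutation p-values of these 10, from 100000 draws over 35 mice and adjusted over 1482 relations of all genes with both means, lay between 3.02e-05 and 0.0152 for r and between 3.11e-05 and 0.022 for rho, and the smallest p that the draws can give is 1e-05 before adjustment. With the presynaptic mean the same 10 genes had the opposite sign, 7 positive beside 20.5% of all genes outside that list and 3 negative beside 45.8%, led by Prkar1b (r = 0.85), Prkcq (-0.79), Pak1 (0.79) and Map4k5 (-0.79). Without the 2 mice farthest from the median of the myelin mean, r was 0.81 for Prkcq, 0.77 for Map4k5, 0.67 for Prkd3, -0.72 for Prkar1b and -0.31 for Cdk14. Without AD_veh 2, AD_UA 3 and AD_UA 8 these values were 0.83, 0.78, 0.73, -0.77 and -0.45. Ppp1cc (0.27), Prkag1 (0.02), Cdk18 (-0.07) and Ppp3r1 (-0.08) had r values with the myelin mean whose adjusted p was above 0.05, the smallest of these being 0.164. For Ppp1r2 the myelin r of -0.26 was -0.68 without AD_veh 2, AD_UA 3 and AD_UA 8, and rho over all 35 mice was -0.53 (adjusted permutation p = 0.00242). Prkca likewise had a myelin r of 0.26, which was 0.50 without those 3 mice, and a rho of 0.49 over all mice (adjusted permutation p = 0.00652), where 64.9% of all genes had a rho past that threshold.

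**Figure D5:**
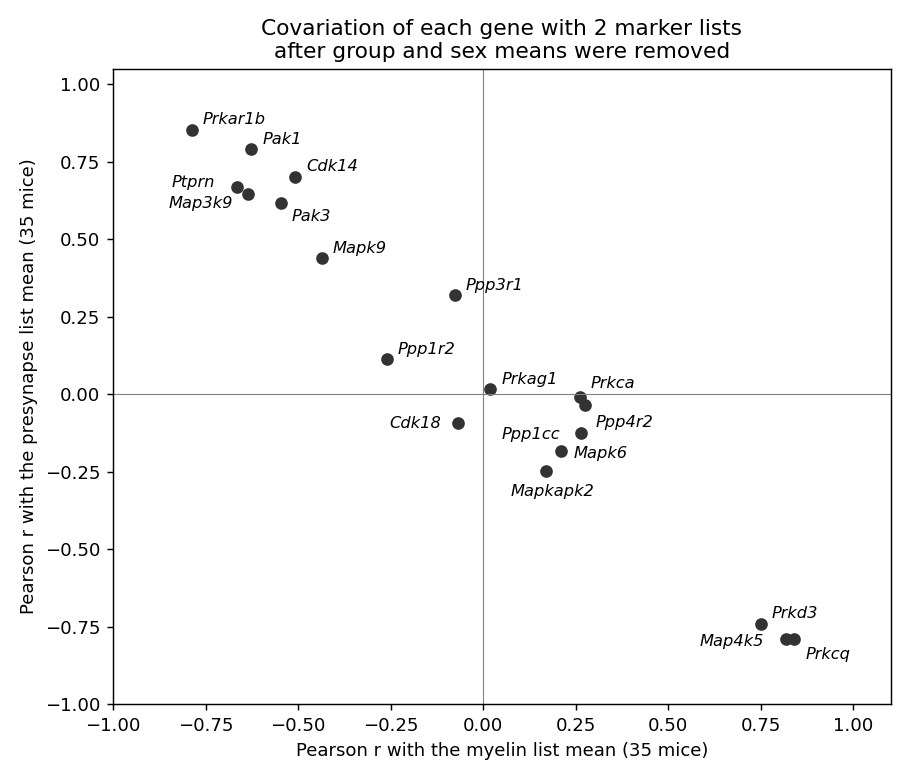
Pearson r of each gene with the mean of the 23 myelin genes (x axis) and the mean of the 15 presynaptic genes (y axis) over 35 mice, after group and sex means were removed, 1 point a gene. Prkcq, Map4k5 and Prkd3 lie at the lower right, Prkar1b, Pak1 and 5 others at the upper left, and the rest between them.

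Of the 171 pairs among the 19 genes, 55 had an adjusted permutation p below 0.05, 27 of them positive and 28 negative. The smallest r among these was 0.39 in size, a size reached by 34.5% of the 171 pairs and by 40.4% of the 288420 pairs of all 760 genes. The tightest was Pak1 with Prkar1b (r = 0.91, rho = 0.89), followed by Map4k5 with Prkd3 (0.79 and 0.70), Mapk9 with Prkar1b (0.79 and 0.76) and Mapk9 with Pak1 (0.77 and 0.67), each at an adjusted p of 0.00019 for r. Map3k9 went with Mapk9 (r = 0.61, rho = 0.64) and against Prkcq (-0.74 and -0.69). Cdk18 and Ppp3r1, whose r with the myelin mean was -0.07 and -0.08, went against each other (-0.72 and -0.70, adjusted p = 0.00019), and their differences in ADPolB_UA minus ADPolB_veh were 0.44 and -0.25. Without the 2 mice farthest from the median of the first gene, r was 0.87 for Pak1 with Prkar1b, 0.71 for Map4k5 with Prkd3 and -0.67 for Cdk18 with Ppp3r1, and without the 3 mice it was 0.87, 0.77 and -0.69. These genes were read in the same RNA of each mouse, and the share of each cell type in that RNA was not measured.

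The sequences printed above were searched for 3 motifs on both strands, and no 2 matches overlapped. The GC box matched 3 times before Map3k9, 1 time before Mapk9, 2 times before Map4k5, 1 time before Prkcq and 6 times before Ppp1cc. It was present before 16 of the 19 genes, counting a gene with any entry that matched, and in 32.7% of the 32851 entries of the table. The cAMP response element core matched 1 time before Map3k9 and 1 time before Mapk9 and at none of the other 3, with 8 of 19 genes and 17.8% of entries. The Sox motif matched 1 time, before Ppp1cc, with 4 of 19 genes and 16.5% of entries. The counts are of genes and the shares are of entries, so they cannot be compared, and a share per gene was not computed. The windows were 63.6% to 74% G or C, and a match describes the letters only.

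Of 104 other kinase, phosphatase and partner genes listed, 13 were measured. In AD_veh minus WT_veh, 1 of the 13 passed the adjusted threshold, lower, and in the other 4 main comparisons 0 did. That gene was Acp1, the low molecular weight tyrosine phosphatase, with a difference of -0.50 ± 0.104 in AD_veh (adjusted p = 0.0295) and -0.49 ± 0.108 in ADPolB_veh (adjusted p = 0.0597). It was lower by limma in AD_UA and ADPolB_UA against WT_veh as well, at -0.64 (adjusted p = 0.00113) and -0.54 (adjusted p = 0.0302). In AD_veh minus WT_veh, 0 of the 760 genes, and so not Acp1, passed with quantile normalization or a trended and robust prior. The same held for ADPolB_UA minus WT_veh with that prior. It also held for both treated groups minus WT_veh when only the groups compared were fitted. Without the dimmest 25% of genes, 0 of the 570 genes kept passed for any transgenic group minus WT_veh. The smallest limma p among them in AD_veh minus WT_veh was 0.00036, against 3.88e-05 for Acp1 in the main fit. Acp1 was thus among the dim genes left out. The medians of the 13 lay between -0.02 and 0.04 in the 5 main comparisons.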

How the data were processed

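Total RNA from 5 mg of hippocampus was read in 35 mice with NanoString nCounter, a hybridization assay that counts barcoded probes, on a panel built around Alzheimer disease. The deposited values are on the log2 scale and were normalized by the authors, with 1 column per mouse and 760 genes. They were used as deposited, without pseudocount or filter. Per the series' design text, the submitters worked in Rosalind. The normalization, background step and depth of these values are not stated there or in the labels, and the number of mice limits the precision. At most 4.21% of values were equal (within 0.005) between 2 mice.

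Each gene was fitted in limma 3.58.1 (R 4.3.3) with the 5 groups and sex as terms over all mice, moderated with eBayes. Tests were two-sided, with Benjamini-Hochberg adjustment over 760 genes and a threshold of 0.05. A fold is 2 to the power of the difference. The submitters' labels say that the columns are separate mice. Replicate numbers were not used to pair mice. Of 62 pairs of same-numbered mice, 20 had residuals that correlated above 0.1, and the median correlation was -0.119. Pairs of unlike numbers were not counted, so these values do not settle whether the numbers pair mice. The fit was tested on simulated data. Correlations used residuals after group and sex, with 100000 permutations of the mice (numpy in Python), and those with the list means were run and adjusted over all genes outside each list. The genes and lists were chosen with earlier results of these data known. In each comparison the 5 genes with the smallest p among the 19 are named (6 for the F test), every gene is given with its levels, and Acp1 was named after its values were seen. All 19 symbols were found in RefSeq's gene and promoter tables of GRCm38.p6. Alternatives were median centring, quantile normalization, a trended and robust prior, weights per mouse, no sex term, the myelin mean as a covariate, only the groups compared, no dimmest 25% of genes, leaving out mice, and the replicate number as a block. The weights are limma's quality weights per mouse.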

Additional observations from a re-analysis of the deposited data

Results flagged for a closer look

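Single mice stood far from the rest of their group in 9 of the 95 combinations of gene and group tested with Dixon's test, of which chance flags about 1 in 20. AD_veh 2 accounted for 4 of them, with Cdk14 at 8.80, Pak1 at 10.93 and Prkca at 9.53 below the other AD_veh mice and Ppp1r2 at 11.29 above them. This is the mouse with Adora2a at 9.85. ADPolB_UA 5 was high in Map4k5 at 9.65 and in Prkd3 at 6.89, both of which followed the myelin genes from mouse to mouse. ADPolB_UA 6 was high in Pak1 at 12.21. ADPolB_veh 2 was high in Cdk14 at 11.29, and ADPolB_veh 5 was low in Prkca at 9.85.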

How the results depend on the processing

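No gene of the 19 passed the adjusted threshold in any comparison under any alternative except weights per mouse. With weights, the counts past it were 1 for AD_veh minus WT_veh (0.658% of all genes), 11 for ADPolB_veh minus WT_veh (58%), 2 for ADPolB_veh minus AD_veh (27.5%), 2 for AD_UA minus WT_veh (17.6%), 3 for ADPolB_UA minus WT_veh (37.5%), 8 for all transgenic minus WT_veh (46.7%), 1 for the averaged treatment (2.37%) and 11 for the F test (60.9%). The Map3k9 difference of ADPolB_veh minus AD_veh, 0.23, was -0.0024 with weights. Of the other values of named genes, 559 kept direction and side of the threshold, 17 passed it with weights, and all 1335 values with a mouse left out kept both. The cause was not tested.

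The median difference of the 19 moved more than its replicate spread in these cases. Under median centring it was -0.128 for AD_veh minus WT_veh, -0.179 for ADPolB_veh minus WT_veh, -0.101 for ADPolB_veh minus AD_veh, -0.0415 for ADPolB_UA minus WT_veh and -0.0904 for all transgenic minus WT_veh. Under quantile normalization it was -0.162 for ADPolB_veh, -0.0760 for ADPolB_UA and -0.0857 for all transgenic mice minus WT_veh. Both scalings also shift the median of all genes, which was -0.06 and -0.04 for ADPolB_veh minus WT_veh, against 0.09 as deposited, and -0.03 and -0.02 for ADPolB_UA minus WT_veh, against 0.08. Without the dimmest 25% of genes, which include 5 of the 19, it was -0.119, -0.0565 and -0.0923 for the same 3 comparisons. With weights it was -0.0405 for AD_UA and -0.0272 for ADPolB_UA minus WT_veh. With single mice left out, the median ran from -0.135 to 0.00125 for AD_UA minus AD_veh, from -0.0817 to 0.00273 for all transgenic minus WT_veh, from -0.0164 to 0.0667 for AD_UA minus WT_veh, from -0.00687 to 0.0833 for ADPolB_UA minus WT_veh, from -0.0263 to 0.0489 for the averaged treatment and from -0.0572 to 0.0628 for the difference of the treatment effects. Each of these ranges includes both signs.

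With the replicate number as a block, 0 of 19 genes passed in any comparison, and the median of the difference of the treatment effects was 0.0946. Of 35 mice, 2 correlated best with a mouse of their own number.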
